A study of Mus musculus with 6 samples.

Results

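The complement genes followed here were the C1q subunits C1qa, C1qb and C1qc, the components C3 and C4b, the alternative pathway genes Cfp and Cfb, and the anaphylatoxin receptors C3ar1 and C5ar1. They were picked by symbol as the study named its rows, and 8 of the 9 had a row among the 35237 genes of the Cufflinks table, while all 9 had one among the 36536 entries of the ALEXA-Seq table. Transcripts were measured by RNA-Seq in 3 libraries of bone marrow monocytes (BMDM) and 3 libraries of brainstem microglia (BSM), each from a pool of 10 C57BL/6 mice at 6 weeks of age, to find transcripts that set the 2 cell types apart. BMDM were sorted as CD11b+ CD45high CD115+ Ly6G- cells from marrow and BSM as CD11b+ CD45low CD115low Ly6G- cells from brain, both after a Percoll gradient, and replicate 1 of each cell type was labelled male and replicates 2 and 3 female. The RNA of the sorted cells was amplified by the Ovation RNA-Seq method, and in the study's quality table BSM replicate 1 had the lowest RNA concentration and by far the lowest RNA integrity number, with no second quality reading, while BMDM replicate 2 had the lowest RNA concentration of the BMDM samples. FPKM are fragments scaled to the length of the exon model and to the number of mapped reads, so levels of different genes can be compared, whereas the unit of the ALEXA-Seq signal was not stated and it was compared between libraries only.

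Complement is a system of plasma and tissue proteins that tags particles for uptake and calls in immune cells. C1q, built from the chains of C1qa, C1qb and C1qc, recognizes antibody complexes, dying cells and, in the developing brain, synapses, and starts the classical pathway, in which C4 and C2 form an enzyme that cleaves C3. Factor B, the product of Cfb, forms the corresponding enzyme of the alternative pathway and properdin, the product of Cfp, stabilizes it. The fragments C3a and C5a act on the receptors encoded by C3ar1 and C5ar1, and microglia are regarded as the main source of C1q in the mouse brain.

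The promoters of 4 members are shown because they stand for the 2 opposite patterns below, C1qb and C1qc being higher in BSM and C3 and Cfp higher in BMDM. RefSeq promoters of 300 bases, from 250 before to 50 after the start of the gene, were matched for 6 of the 9 members (C1qb, C1qc, C3, C3ar1, C5ar1 and Cfp) on GRCm38.p6, a later build than the mm9 of the submitters' processing notes. All lie on the minus strand and are written 5′ to 3′, C1qb at chr4:136886151-136886450, C1qc at chr4:136892865-136893164, C3 at chr17:57228087-57228386 and Cfp at chrX:20931506-20931805. Capitals mark matches, on either strand, to the letters GAGGAA (the core of PU.1 sites), TTGCNNAA (C/EBP), TGACTCA (AP-1) and TATAAA (the box bound by the TBP factor), which were chosen after the promoters had been read.
C1qb: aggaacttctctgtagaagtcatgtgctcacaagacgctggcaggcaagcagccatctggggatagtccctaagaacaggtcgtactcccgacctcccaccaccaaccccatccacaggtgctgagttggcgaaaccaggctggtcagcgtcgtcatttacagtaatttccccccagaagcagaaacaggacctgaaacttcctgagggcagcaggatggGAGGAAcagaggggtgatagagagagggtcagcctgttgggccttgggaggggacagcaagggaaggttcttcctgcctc
C1qc: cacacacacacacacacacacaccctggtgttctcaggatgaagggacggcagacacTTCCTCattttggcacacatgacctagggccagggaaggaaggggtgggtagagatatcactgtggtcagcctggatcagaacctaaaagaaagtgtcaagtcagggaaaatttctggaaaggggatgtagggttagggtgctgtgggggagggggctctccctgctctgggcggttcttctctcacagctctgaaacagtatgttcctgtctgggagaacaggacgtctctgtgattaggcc
C3: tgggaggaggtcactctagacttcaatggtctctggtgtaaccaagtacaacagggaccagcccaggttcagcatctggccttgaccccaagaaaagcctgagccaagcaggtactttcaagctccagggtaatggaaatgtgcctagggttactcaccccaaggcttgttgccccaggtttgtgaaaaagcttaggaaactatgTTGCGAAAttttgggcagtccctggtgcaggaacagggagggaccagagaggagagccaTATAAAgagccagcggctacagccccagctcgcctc
Cfp: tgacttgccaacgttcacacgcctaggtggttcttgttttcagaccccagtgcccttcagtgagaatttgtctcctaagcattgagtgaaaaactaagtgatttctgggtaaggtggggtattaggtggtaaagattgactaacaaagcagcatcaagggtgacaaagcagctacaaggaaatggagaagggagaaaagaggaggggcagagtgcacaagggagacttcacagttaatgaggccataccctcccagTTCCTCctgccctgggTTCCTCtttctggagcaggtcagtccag
GAGGAA was matched in C1qb, on the plus strand at position -30 counted from the start of the gene, in C1qc on the minus strand at -193, and in Cfp on the minus strand at 7 and 23. These letters stood in 28.3% of the 32851 mouse promoters of the same length, so the match was not particular to these genes. C3 held TTGCGAAA at -45, a match to TTGCNNAA that 10.8% of all promoters had, and TATAAA at 15, which 13.6% had. C3ar1, not printed here, held TGACTCA at -22 (in 5.2% of all promoters) and TATAAA at -235, and C5ar1 held none of the 4 motifs. No matched motifs overlapped.

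The groups were compared with limma on log2(FPKM + 1) for the 6364 genes that reached an FPKM of 3 in 1 library or more, with Benjamini-Hochberg adjustment over all of them. Log2 fold changes below are BMDM minus BSM, and since 1 was added to each value they understate the change of a gene that is near 0 in one group. Summed FPKM were 163198.7 to 194184.2 in the BMDM libraries and 68287.8 to 75021.4 in the BSM libraries, and tested genes had a median log2 fold change of 0.81. It was 0.02 after quantile normalization, 0.15 after upper quartile scaling and -0.23 with the same summed FPKM in every library. BSM replicate 1 had 11237 genes above 0, against 16693 and 16977 in the other BSM libraries.

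Of the 9 members, 7 passed the minimum, and all 7 were differentially expressed, as were 54.5% of all tested genes. The 5 higher in BSM were C1qa, C1qb, C1qc, C3ar1 and C5ar1 (9.22% of all tested genes were higher in BSM), and C3 and Cfp were higher in BMDM (45.3% of all tested genes). Of these, 6 reached the minimum only through the group in which they were high, as 2907 of the 6364 tested genes did, so the count of members by itself carries little. The libraries of the groups did not overlap for any of the 7 (66.8% of all tested genes; 11.6% with BSM higher and 55.2% with BMDM higher). In the ALEXA-Seq signal of the same libraries the same 7 members were tested and called in the same directions, where 47.9% of entries were called, 10.9% higher in BSM and 37.1% higher in BMDM. Their libraries again did not overlap, as in 66.1% of entries (14.6% with BSM higher and 51.5% with BMDM higher). Which part of a difference came from fewer cells with the transcript and which from less RNA per cell cannot be told apart in pooled cells.

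**Figure D1:**
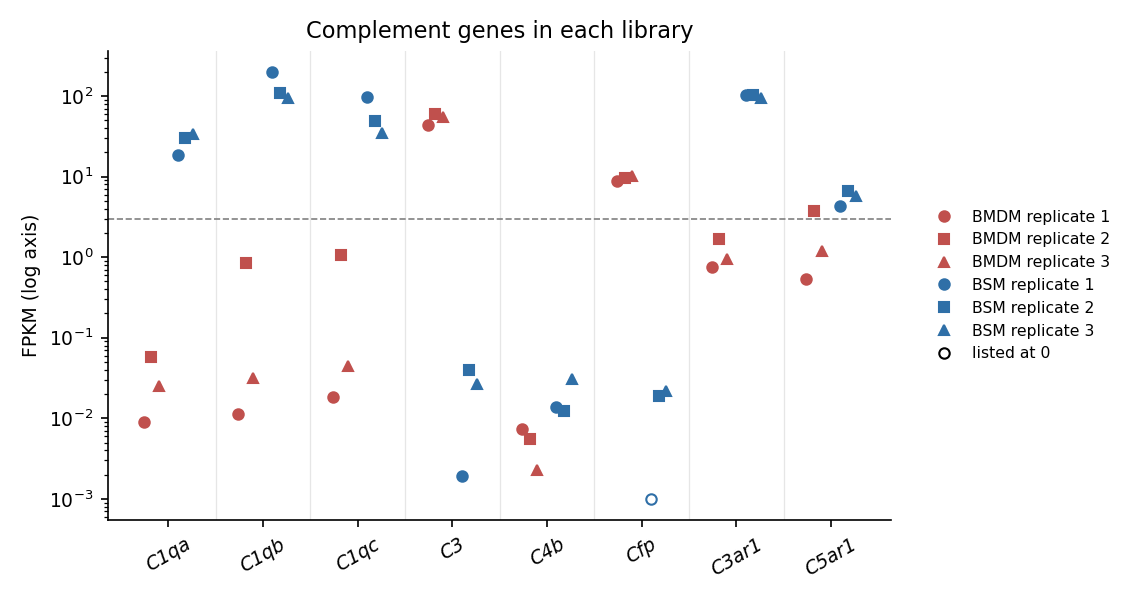
FPKM of the 8 complement genes with a row in the Cufflinks table, on a log axis, in each of 3 BMDM and 3 BSM libraries, 1 point per library. The dashed line marks the FPKM of 3 that at least 1 library had to reach for a gene to be tested, and an open symbol at the foot of the plot stands for a gene listed at 0. The C1q subunits and C3ar1 lie high in BSM and low in BMDM, C3 and Cfp the other way round, and C4b lies at the foot in all 6 libraries.

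C1qa, C1qb and C1qc encode the A, B and C chains of C1q and were among the most abundant BSM transcripts, while in BMDM they were near 0. The 3 genes lay side by side on chromosome 4 of mm9, C1qb at chr4:136436044-136442102, C1qc at chr4:136445719-136448980 and C1qa at chr4:136451832-136454718, together over 18675 bases with 3616 and 2851 bases between the neighbours. No match to another gene's transcript covered any of their longest transcripts, so reads shared with near-identical copies were not found for them.

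C1qb, the B chain, had an FPKM of 0.0114, 0.849 and 0.0319 in BMDM replicates 1 to 3 and of 198.8, 108.8 and 95.7 in BSM replicates 1 to 3. Every BSM library was over 100 times as high as every BMDM library, BSM replicate 1 was the highest of its group, and BMDM replicate 2 stood far above the other BMDM libraries. BMDM averaged 0.297 ± 0.478 (SD, n = 3) while BSM averaged 134.4 ± 56.1 (SD, n = 3), a log2 fold change of -6.69 (SE 0.37, limma adjusted p = 9.31e-06). C1qb ranked 29th, 67th and 67th of all genes by FPKM in the BSM libraries.

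C1qc, the C chain, had an FPKM of 0.0183, 1.05 and 0.0448 in BMDM replicates 1 to 3 and of 98.7, 49.3 and 34.8 in BSM replicates 1 to 3. The pattern over the libraries was that of C1qb, with BSM replicate 1 high and BMDM replicate 2 above its group. The log2 fold change was -5.44 (SE 0.44, limma adjusted p = 5.43e-05), and the rank in BSM lay between 84 and 260.

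C1qa, the A chain, had an FPKM of 0.0090, 0.0583 and 0.0255 in BMDM replicates 1 to 3 and of 18.4, 30.5 and 34.1 in BSM replicates 1 to 3. Here BSM replicate 1 was the lowest of its group instead of the highest, and BMDM replicate 2 was again the highest BMDM library. The log2 fold change was -4.75 (SE 0.28, limma adjusted p = 1.22e-05), and the rank in BSM lay between 268 and 598.

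The subunits thus did not keep one ratio across BSM libraries. Of the summed C1q FPKM, C1qa made up 5.84%, 16.1% and 20.7% in BSM replicates 1 to 3. C1qb made up 62.9%, 57.7% and 58.1%, and C1qc made up 31.2%, 26.2% and 21.1%. The share of C1qb was the largest in all 3 BSM libraries, and the FPKM of C1qb was 10.8, 3.57 and 2.80 times that of C1qa. C1qc was above C1qa in BSM replicates 1 and 2, but in replicate 3 they were level at 34.8 and 34.1.

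The ALEXA-Seq signal held the same departure of BSM replicate 1. It was 618.6, 879.5 and 898.4 for C1qa, 4309, 2424 and 2004 for C1qb and 1542, 787.7 and 526.7 for C1qc in BSM replicates 1 to 3. Both tables were made from the same reads, and the part of the low RNA amount and RNA integrity of that library in this departure was not tested. It was also the one male BSM library, which cannot be told apart from these. Without BSM replicate 1 the log2 fold changes by FPKM were -5.01 for C1qa, -6.37 for C1qb and -5.03 for C1qc, all still called.

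**Figure D2:**
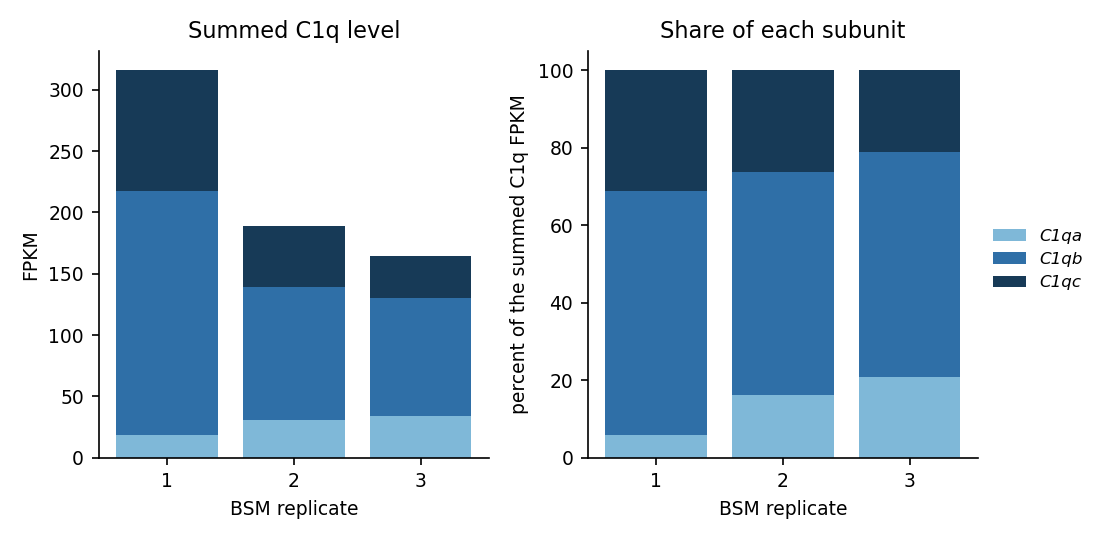
The 3 C1q subunits in the 3 BSM libraries, as stacked FPKM (left) and as percent of their summed FPKM (right). Replicate 1 has the highest sum, 315.9 against 188.6 and 164.7, and the smallest share of C1qa, 5.84%.

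The summed C1q FPKM was 0.0387, 1.96 and 0.102 in BMDM replicates 1 to 3 and 315.9, 188.6 and 164.7 in BSM replicates 1 to 3. As percent of each library's summed FPKM this was 2.37e-05, 0.00101 and 5.89e-05 in BMDM and 0.457, 0.251 and 0.241 in BSM. BMDM replicate 2 carried most of the little C1q seen in BMDM on either scale. By FPKM almost all of that was C1qb and C1qc. C1qa also stood out there in the ALEXA-Seq signal, at 0.377, 4.65 and 0.545 in BMDM replicates 1 to 3. The signal of BMDM replicate 2 was 18.5 for C1qb and 16.1 for C1qc.

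BMDM replicate 2 was also the BMDM library with the most transcripts of granulocytes and their precursors. All 13 listed genes of those cells were highest there among BMDM libraries, and their summed FPKM was 549.2, against 77.97 and 119.4 in replicates 1 and 3. The summed FPKM of 6 erythroid markers was 118.6 there against 27.9 and 19.0. In BSM the granulocyte list summed to at most 0.139 and the erythroid list to at most 0.33.

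Microglial transcripts did not all move with C1q in that library. Relative to the BSM mean, C1qb stood at 0.631% in BMDM replicate 2, against 0.00849% and 0.0237% in replicates 1 and 3, and C1qc at 1.73% against 0.0300% and 0.0735%. Of 10 microglia markers 6 were highest in replicate 2, among them Olfml3 at 0.669% against 0.0317% and 0.0602%. P2ry12, a purinergic receptor of microglia, was lowest there, at 0.0172% against 0.159% and 0.149%, and Sall1, a transcription factor of microglia, was listed at 0 in all 3. The part of other cells in the C1q of BMDM replicate 2 was not tested beyond these values. Without that library the log2 fold changes by FPKM were -4.77 for C1qa, -6.97 for C1qb and -5.77 for C1qc. By ALEXA-Seq they were -9.08, -10.95 and -9.31, against -8.43, -9.68 and -8.09 with all libraries.

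**Figure D3:**
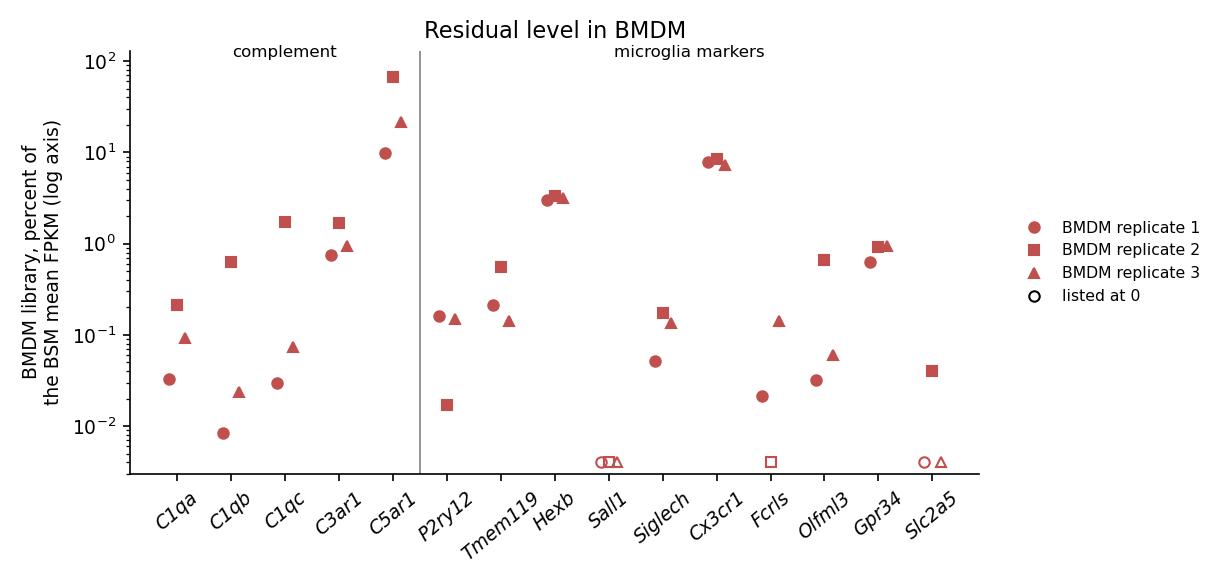
FPKM in each BMDM library as percent of the mean FPKM of the 3 BSM libraries, on a log axis, for the 5 complement genes that were higher in BSM and for 10 microglia markers. Open symbols at the foot stand for genes listed at 0. C1qb, C1qc and C5ar1 are highest in BMDM replicate 2 by a wide margin, and so is Olfml3, while P2ry12 is lowest there.

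The 5 tested genes whose log2(FPKM + 1) values lay nearest to the mean profile of the C1q subunits, by Euclidean distance over the 6 libraries, were Olfml3 (0.45), Rasgrp3 (0.74), Slco2b1 (0.75), Mertk (0.92) and Tjp1 (1.16). Olfml3, a secreted protein, had an FPKM of 69.1, 70.9 and 56.6 in BSM replicates 1 to 3, Mertk, a receptor for the uptake of dying cells, had 51.0, 70.4 and 71.5, and Tjp1, a tight junction scaffold, had 58.4, 31.5 and 31.5. Tjp1 was the one of the 5 that exceeded the other BSM libraries by over 1.5 times in replicate 1, as C1qb and C1qc did. The subunits lay at 0.76 (C1qc), 2.01 (C1qb) and 2.22 (C1qa) from their own mean, since their levels differed, and C3ar1 at 2.02.

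C3, the component on which all complement pathways meet, showed the opposite pattern. The gene, at chr17:57343397-57367500, had an FPKM of 43.4, 60.7 and 55.1 in BMDM replicates 1 to 3 and of 0.0019, 0.0396 and 0.0265 in BSM replicates 1 to 3. All BMDM libraries were high, within a factor of 1.5 of each other, and all BSM libraries were near 0, with replicate 1 the lowest. BMDM averaged 53.1 ± 8.84 (SD, n = 3) while BSM averaged 0.0227 ± 0.0191 (SD, n = 3), a log2 fold change of 5.71 (SE 0.23, limma adjusted p = 2.91e-06). C3 ranked between 275 and 375 of all genes in BMDM.

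In the ALEXA-Seq signal C3 was 911.6, 1308 and 1095 in BMDM and 0.0444, 0.858 and 0.563 in BSM, with a log2 fold change of 9.56 (SE 0.35, limma adjusted p = 1.91e-05). ALEXA-Seq values are on a larger scale than FPKM, so adding 1 compresses their fold changes less.

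The contrast between recognition subunits and C3 was also taken within each library. The log2 ratio of summed C1q to C3, with 1 added to each FPKM, was -5.42, -4.38 and -5.67 in BMDM replicates 1 to 3 and 8.31, 7.51 and 7.33 in BSM replicates 1 to 3. C3 was thus the higher in every BMDM library and C1q in every BSM library, a difference between the group means of 12.87 (exact two-sided permutation test, p = 0.1, the smallest that 3 libraries against 3 can give). Since one side of the ratio is near 0 in each group, the size of this difference depends on the value added, and it was 17.87 with 0.1 added and 19.17 on the ALEXA-Seq values. The separation of the groups in this ratio follows from the levels of these genes given above, so the test adds no support to them.

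C4b, which encodes the classical pathway component C4, was near 0 in both cell types and under the minimum. Its row, at chr17:34865329-34880827, held an FPKM of 0.0075, 0.0056 and 0.0023 in BMDM replicates 1 to 3 and of 0.0140, 0.0123 and 0.0304 in BSM replicates 1 to 3. The BSM libraries were all above the BMDM libraries, but at levels that do not bear a fold (exact two-sided permutation test, p = 0.1). The transcript of C4a covered 100% of the longest C4b transcript at 95% identity or more, so reads could have been split between them, and C4a itself was at most 0.009 in any library.

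Cfp, the gene of properdin on chromosome X at chrX:20502580-20508681, was the second member higher in BMDM. It had an FPKM of 8.83, 9.59 and 10.2 in BMDM replicates 1 to 3 and of 0, 0.0186 and 0.0220 in BSM replicates 1 to 3. The BMDM libraries lay close together and those of BSM were near or at 0, replicate 1 being listed at 0 in the ALEXA-Seq table too. BMDM averaged 9.53 ± 0.672 (SD, n = 3) while BSM averaged 0.0135 ± 0.0119 (SD, n = 3), a log2 fold change of 3.37 (SE 0.23, limma adjusted p = 2.48e-05).

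Cfb, the gene of factor B, had no row of its own in the Cufflinks table. Its ALEXA-Seq signal was 1.02, 1.35 and 2.41 in BMDM replicates 1 to 3 and 0, 0 and 0.59 in BSM replicates 1 to 3. Every BMDM library was above every BSM library, at levels too low for the model test (exact two-sided permutation test, p = 0.1).

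C2, the classical pathway counterpart of factor B and its neighbour on chromosome 17, had a Cufflinks row of 39174 bases, against 19499 bases for C2 and 6141 for Cfb in RefSeq. That row held 0.802, 1.27 and 1.08 in BMDM and 0, 0.646 and 0.359 in BSM, while the ALEXA-Seq signal of C2 was 0, 0.0519 and 0 in BMDM and 0, 0.0495 and 0.272 in BSM. Whether the Cufflinks row of C2 took in fragments of Cfb was not tested. The annotated transcript Gm20547 matches 81.7% of the longest Cfb transcript and 62.5% of that of C2, so both are uncertain.

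The anaphylatoxin receptors were both higher in BSM, C3ar1 by far the more. C3ar1, the receptor of C3a, at chr6:122797992-122806023, had an FPKM of 0.755, 1.71 and 0.945 in BMDM replicates 1 to 3 and of 104.5, 104.3 and 94.7 in BSM replicates 1 to 3. BSM libraries were nearly level, unlike for C1q, and BMDM replicate 2 was the highest BMDM library. The means were 1.14 ± 0.503 (SD, n = 3) and 101.2 ± 5.59 (SD, n = 3), so that BSM had 89.1 times the FPKM of BMDM, and 98.3 times the ALEXA-Seq signal, with a log2 fold change by FPKM of -5.60 (SE 0.25, limma adjusted p = 3.29e-06). C3ar1 ranked 76th, 69th and 69th of all genes in the BSM libraries, close to C1qb in replicates 2 and 3 but below it in replicate 1.

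C5ar1, the receptor of C5a, at chr7:16832092-16844600, had an FPKM of 0.543, 3.71 and 1.19 in BMDM replicates 1 to 3 and of 4.32, 6.59 and 5.76 in BSM replicates 1 to 3. The groups did not overlap, but BMDM replicate 2 reached 66.7% of the BSM mean, against 9.78% and 21.5% for replicates 1 and 3. The means were 1.81 ± 1.67 (SD, n = 3) and 5.56 ± 1.15 (SD, n = 3), a log2 fold change of -1.37 (SE 0.42, limma adjusted p = 0.0249). C5ar1 is also a receptor of granulocytes, whose markers were highest in BMDM replicate 2, and the part of such cells in its level was not tested.

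The call of C5ar1 was the least firm among the members. Its limma adjusted p was 0.0848 without BMDM replicate 1, 0.0919 without BMDM replicate 3, 0.0687 without BSM replicate 2 and 0.0599 without BSM replicate 3, with log2 fold changes between -1.01 and -1.34. Without BMDM replicate 2 the log2 fold change was -1.82 (limma adjusted p = 0.00663) by FPKM and -2.95 (adjusted p = 0.00529) by ALEXA-Seq, and without BSM replicate 1 the call by FPKM was kept. Leaving out the minimum on FPKM, so that more genes were adjusted for, gave an adjusted p of 0.0886. In the ALEXA-Seq signal C5ar1 was 10.9, 85.3 and 25.0 in BMDM and 119.3, 153.7 and 133.3 in BSM, with a log2 fold change of -2.18 (SE 0.68, limma adjusted p = 0.0359).

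The 2 receptors were compared within each library. The log2 ratio of C3ar1 to C5ar1, with 1 added to each FPKM, was 0.19, -0.80 and -0.17 in BMDM replicates 1 to 3 and 4.31, 3.79 and 3.82 in BSM replicates 1 to 3. In BMDM this log2 ratio lay between -0.80 and 0.19, and in BSM C3ar1 was far above C5ar1. The difference between the group means was 4.24 (exact two-sided permutation test, p = 0.1, the smallest possible). Both receptors were low in BMDM, where adding 1 draws the ratio towards 0. Without it, C3ar1 was above C5ar1 in BMDM replicate 1 (0.755 against 0.543 FPKM). It was below C5ar1 in replicates 2 (1.71 against 3.71) and 3 (0.945 against 1.19).

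**Figure D4:**
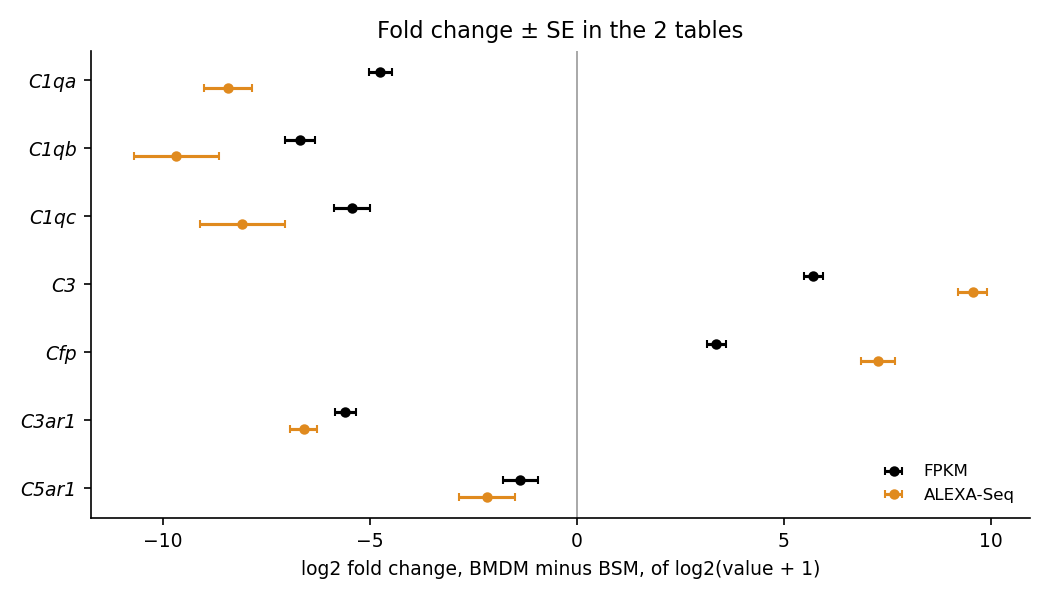
Log2 fold changes, BMDM minus BSM, with their standard errors, of the 7 tested members from the Cufflinks FPKM (black) and the ALEXA-Seq signal (orange) of the same 3 BMDM and 3 BSM libraries, each after adding 1. All 7 have the same sign in both, from -6.69 (C1qb) to 5.71 (C3) by FPKM, and C5ar1 lies nearest to 0.

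Of 52 other complement genes, in 4 lists by role, 50 had a row, 9 reached the minimum and 5 were differentially expressed, 4 higher in BMDM and 1 higher in BSM. Over all tested genes 54.5% were called, 45.3% higher in BMDM and 9.22% higher in BSM, so the count says nothing particular about these genes. Of the 5, Fcnb, Cd93 and C5ar2 reached the minimum only through the group in which they were high, which favours a call. The same held for 2907 of the 6364 tested genes. The median over the 9 was 0.99 on the log2 scale, beside 0.81 over all tested genes. With another scaling the calls, again 5, were split 3 to 2 (quantile normalization and upper quartile scaling) or 2 to 3 (same summed FPKM).

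Proteases and recognition molecules of the classical and lectin pathways were mostly near 0, and of 13 genes with a row only Fcnb, the gene of ficolin B, was tested. It had an FPKM of 5.31, 28.3 and 6.17 in BMDM and was listed at 0 in all BSM libraries, with a log2 fold change of 3.46 (SE 0.55, limma adjusted p = 0.00156). BMDM replicate 2 was again far above the others, as it was for the granulocyte list. C1rb, C1s and C1s2, genes of the C1r and C1s proteases that C1q activates, had an FPKM of at most 0.173 in any library. For C1ra no row was matched among the Cufflinks or the ALEXA-Seq values.

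Of 7 components of the alternative and terminal pathways with a row, none reached the minimum. Their highest FPKM in any library was 0.197, 4 of them were listed at 0 in all 6 libraries, and Hc, the gene of C5, was at most 0.0027. One of the 4, C6, had an ALEXA-Seq signal of 1.68, 0.0363 and 0.393 in BMDM and of 1.09, 1.43 and 1.62 in BSM, so a 0 in the Cufflinks table need not mean that no reads were found.

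Of 19 regulators with a row, 1 was tested. Cr1l, the gene of Crry, a membrane inhibitor of C3 cleavage, had an FPKM of 16.2, 25.9 and 20.8 in BMDM and of 5.92, 12.7 and 12.5 in BSM. Its log2 fold change was 0.99 (SE 0.34, limma adjusted p = 0.037), but with the same summed FPKM it turned to -0.24 (adjusted p = 0.585), and quantile normalization gave 0.21 (adjusted p = 0.622), so no direction is given for it. It also lost its call without any one of the BMDM replicates (limma adjusted p = 0.051, 0.12 and 0.104) and in the ALEXA-Seq signal (adjusted p = 0.0797).

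Among receptors 7 of 11 were tested and 3 were differentially expressed. C5ar2, the other C5a receptor, was higher in BSM, like C3ar1 and C5ar1, at 10.6, 8.65 and 6.61 against 0.857, 0.693 and 0.331 FPKM in BMDM (log2 fold change -2.56, SE 0.27, limma adjusted p = 0.000207). Cd93, a surface glycoprotein once taken for a C1q receptor, was higher in BMDM, at 5.25, 4.97 and 8.53 FPKM against 0, 0.0295 and 0.0278 in BSM (log2 fold change 2.80, SE 0.28, limma adjusted p = 0.000172).

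Itgb2, the shared chain of complement receptors 3 and 4, was higher in BMDM, at 82.0, 101.4 and 92.1 FPKM against 28.4, 34.6 and 29.9 in BSM (log2 fold change 1.54, SE 0.21, limma adjusted p = 0.000772). It stayed called with quantile normalization (0.78, limma adjusted p = 0.0173) and upper quartile scaling (0.70, adjusted p = 0.0201). With the same summed FPKM the difference fell to 0.24 (adjusted p = 0.302) and was not called. Itgam, the other chain of complement receptor 3 and the CD11b of the sort, had 131.9, 109.4 and 124.4 FPKM in BMDM and 176.5, 0 and 100.5 in BSM. The 0 of BSM replicate 2 stood beside an ALEXA-Seq signal of 2435 in the same library, another FPKM listed at 0 where reads were found. Without that library the log2 fold change of Itgam was -0.13 (limma adjusted p = 0.754). With library quality weights and that 0 kept, Itgam was called (4.59, limma adjusted p = 0.0346).

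C1qbp, Calr and Lrp1, proposed or known binding partners of C1q, were not called in the comparison. C1qbp had 3.33, 5.31 and 5.77 FPKM in BMDM and 5.14, 1.83 and 1.83 in BSM, and was called without BSM replicate 1 (log2 fold change 1.01, limma adjusted p = 0.0132) and with library quality weights (1.08, adjusted p = 0.00035), though with the same summed FPKM its log2 fold change was -0.39. Calr had 31.0, 73.7 and 35.4 FPKM in BMDM and 56.4, 47.8 and 34.9 in BSM, and was called with the same summed FPKM (log2 fold change -1.36, limma adjusted p = 0.0141). Lrp1 had 8.93, 6.03 and 6.76 FPKM in BMDM and 7.0, 12.3 and 9.96 in BSM, and was called higher in BSM with each other scaling. Its log2 fold change was -1.13 with quantile normalization (limma adjusted p = 0.017) and -1.13 with upper quartile scaling (adjusted p = 0.0216). With the same summed FPKM it was -1.55 (adjusted p = 0.00495), and library quality weights gave -0.61 (adjusted p = 0.00744). In the ALEXA-Seq signal Lrp1 was not called (limma adjusted p = 0.157).

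**Figure D5:**
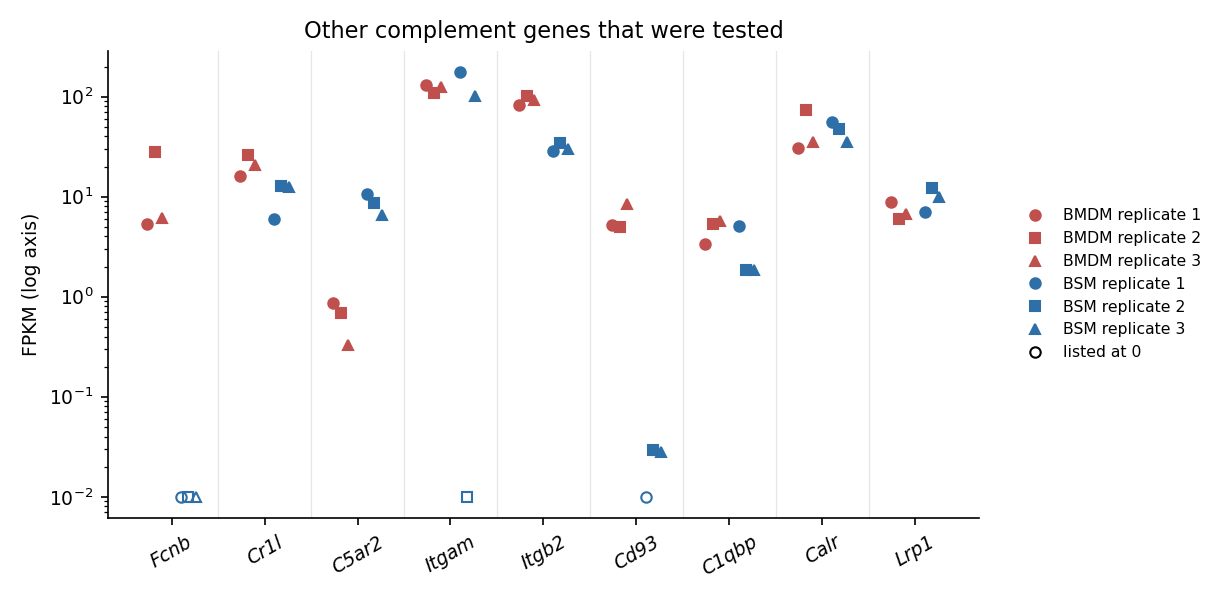
FPKM, on a log axis, of the 9 other complement genes that reached an FPKM of 3 in at least 1 library, in each of 3 BMDM and 3 BSM libraries. Open symbols at the foot stand for genes listed at 0. C5ar2 lies higher in BSM, Fcnb, Itgb2 and Cd93 higher in BMDM, and Itgam is listed at 0 in BSM replicate 2 only.

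The labelled cell types were checked against their markers. All 10 microglia markers reached an FPKM of 1 in every BSM library and were differentially expressed, with summed FPKM of 811.8 to 905.4 in BSM and 17.6 to 19.7 in BMDM, and all 8 monocyte markers were higher in BMDM, at 1718 to 3270 against 6.28 to 7.24. Ptprc, the CD45 of the sort, was higher in BMDM by FPKM, at 112.8, 83.2 and 115.3 against 21.4, 36.4 and 46.1 (limma adjusted p = 0.00406). Its ratio of means, BMDM over BSM, was 3.00, beside 2.50 for the mean summed FPKM of the libraries. Much of its difference thus goes with the library sums, and its result with another scaling is not given here. The transcript of Csf1r, which encodes the CD115 by which BMDM were gated as positive and BSM as low, was higher in BSM. It had 158.1, 130.7 and 101.9 FPKM in BSM against 19.1, 21.3 and 21.2 in BMDM (limma adjusted p = 0.000102). The gate used surface protein, which is a different measure from the transcript.

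Cells that also make complement in brain or marrow were looked for in BSM. Of 9 markers of perivascular and tissue macrophages with a row, none reached an FPKM of 1 in every BSM library, 4 reached it in some BSM library, among them Lyve1 and Mrc1 at 1.87 and 1.75 in replicate 2, and their sum was 2.67, 6.32 and 3.80 in BSM replicates 1 to 3. This sum holds 1.54, 0.543 and 0.253 of F13a1, which is also on the monocyte list, and the part of such cells in the C1q level was not tested. Of 8 astrocyte markers only Slc1a3 reached 1, at 9.51, 5.18 and 6.71, while Gfap was listed at 0 throughout. Sums of 6 neuronal and 7 endothelial markers did not exceed 0.249 and 0.876 in BSM, 7 oligodendrocyte markers summed to at most 2.13, and 7 lymphocyte markers to at most 9.64, nearly all of it Ighm.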

How the data were processed

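RNA-Seq libraries of 3 BMDM and 3 BSM samples were compared, grouped by the sample labels. Paired-end reads of 100 basepairs were aligned by the authors using TopHat (1.3.1 in the submitters' processing notes, which also list Bowtie 0.12.7, CASAVA 1.7.0 and mm9) and the authors deposited FPKM for each gene from Cufflinks (1.0.3). The authors also deposited an ALEXA-Seq signal from the same libraries, whose unit and normalization are not given in the sources used here. Neither table holds read counts, so count models were not used, and the number of reads behind each value is unknown. The study gives total and mapped reads for each library, and BMDM replicate 2 had the lowest share of reads mapped.

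Log2(FPKM + 1) was fitted with limma 3.58.1 in R 4.3.3, with empirical Bayes moderation and a mean-variance trend, for the 6364 genes reaching an FPKM of 3 in any library, and the 6364 ALEXA-Seq entries with the highest values were fitted in the same way. Benjamini-Hochberg adjustment ran over all genes of a table, and genes with an adjusted p under 0.05 were called differentially expressed. Ratios within a library were compared by exact two-sided permutation tests in scipy 1.17.1. Before use, the fit was checked on simulated data. Copies are blastn 2.17.0 matches of at least 100 bases and 95% identity among the transcripts of GENCODE M21. Positions in mm9 are counted from 1.

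The members, gene lists and tests were chosen with earlier results of these data known. Apart from the members, the genes named are the called genes of 4 complement lists, the sort transcripts, the 5 genes nearest to the C1q profile and markers. C1rb, C1s, C1s2, C2, C4a, C6, Hc, Calr, C1qbp and Lrp1 were named after their values were seen, and C1ra after no row was matched for it. A result of the regulators is not reported here. Alternatives were a lower pseudocount (0.1), a lower or no FPKM minimum, quantile, upper quartile and equal-sum scaling, no trend, library quality weights, a replicate block and leaving out each library. Leaving out BMDM replicate 2 and BSM replicate 1 together was added after the data were seen. Per the methods the replicates were generated independently.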

Additional observations from a re-analysis of the deposited data

How the results depend on the processing

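The 7 tested members kept their direction in every alternative run in both tables, and 6 of them kept their call in all of these. C5ar1 lost it in 5 of 16 alternatives by FPKM and in 5 of 11 by ALEXA-Seq, so that 6 members were called when the filter on low values or 1 of BMDM replicates 1 and 3 and BSM replicates 2 and 3 was left out. By FPKM the log2 fold changes ranged from -7.70 to -4.58 for C1qa, from -9.05 to -6.37 for C1qb, from -7.68 to -5.03 for C1qc, from 5.08 to 8.76 for C3, from 2.89 to 6.41 for Cfp, from -6.66 to -5.48 for C3ar1 and from -2.36 to -1.01 for C5ar1. Of the other complement genes, Cr1l turned from 0.99 to -0.24 with the same summed FPKM.

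Of all genes 3470 were called by FPKM, 83.1% of them higher in BMDM, against 52.9% of 2605 with quantile normalization, 56.7% of 2430 with upper quartile scaling and 37.9% of 2553 with the same summed FPKM. Leaving out 1 library gave 2498 to 3932 genes by FPKM and, by ALEXA-Seq, 1971 (without BMDM replicate 3) to 3984, or 4444 without both BMDM replicate 2 and BSM replicate 1, against 3050. Library quality weights gave 8 called genes of the other complement lists, against 5, and 4703 of all genes, against 3470. The cause was not tested. Among the 8 was Itgam, whose FPKM was listed at 0 in BSM replicate 2 although reads were found there, so its call is not relied on.

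Whether BMDM and BSM samples with the same number came from the same mice is not known. Libraries with the same number deviated from their group means with r = -0.0195, -0.00836 and 0.134, and those with different numbers with -0.113 to 0.0685. Such correlations between different cell types, with 3 libraries a group, cannot decide it. With a replicate block 3471 genes and 7 members were called by FPKM and 2885 and 7 by ALEXA-Seq, and the differences of the log2 ratios, 4.24 for C3ar1 to C5ar1 and 12.87 for C1q to C3, had a sign-flip permutation p = 0.25, the smallest that 3 pairs can give. Across the other alternatives these differences ranged from 3.80 to 4.51 and from 12.58 to 19.17. With 3 libraries a group and an unknown number of reads behind each value, small differences and values near 0 are not resolved.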
